A study of Mus musculus with 6 samples.

Results

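A set of 7 regulators of squamous epithelium, Trp63, Bnc1, Tfap2a, Tfap2c, Gata3, Pitx1 and Pax9, were followed through RNA-seq of epithelium cultured from the 3 regions of the mouse stomach. They were taken by name from the table of expression values, in which all 7 had a row among 15431 genes. The groups were forestomach epithelium, antrum epithelium (labelled antrum/pylorus) and corpus epithelium, each wild type (WT), each labelled p2 and each with 2 libraries. Corpus and antrum were labelled as 2D cultures and shared a growth protocol. Forestomach was grown by a different published protocol, described as background for expanding basal cells of several epithelia, so region and culture condition cannot be told apart. The labels give no strain, age or sex, and do not say whether the libraries of a region came from separate animals or cultures. The p-values below thus rest only on how far the 2 libraries of each region lay apart, and that spread could be technical. For each gene the spread was shared over the 3 regions and drawn towards that of all genes.

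The mouse forestomach is lined by stratified squamous epithelium, like the oesophagus and the skin, whereas corpus and antrum are lined by columnar glands. As background, p63, the product of Trp63, is a p53 relative that maintains the basal layer of stratified epithelia and drives basal keratins and adhesion genes. Basonuclin 1 (Bnc1) is a zinc finger protein of basal keratinocytes. The AP-2 factors made from Tfap2a and Tfap2c act with p63 in surface ectoderm and epidermis, and Gata3 acts in hair follicle and skin barrier formation as well as in T lymphocytes. Pitx1 is a homeodomain factor best known for hindlimb identity and also found in oral ectoderm. Pax9 is a paired box factor of the pharyngeal pouches, teeth, tongue and oesophagus.

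Promoter sequences are shown because several of these factors bind short motifs, and the letters just ahead of each start site can be read beside the expression values. RefSeq promoters of 300 bases on GRCm38.p6, running 250 bases before to 50 after the start site, were matched for 4 of the 7 factors, namely Bnc1, Gata3, Pax9 and Tfap2a, the last with 2 start sites. Trp63, Pitx1 and Tfap2c had no entry in that table. The motif searched for the AP-2 factors was GCCNNNGGC, which reads the same on both strands, and its matches are in capitals. Bnc1 and Gata3 are printed because they held a match, and Pax9 because it is the factor whose expression overlapped most between regions.
Bnc1, chr7:81992250-81992549, minus strand: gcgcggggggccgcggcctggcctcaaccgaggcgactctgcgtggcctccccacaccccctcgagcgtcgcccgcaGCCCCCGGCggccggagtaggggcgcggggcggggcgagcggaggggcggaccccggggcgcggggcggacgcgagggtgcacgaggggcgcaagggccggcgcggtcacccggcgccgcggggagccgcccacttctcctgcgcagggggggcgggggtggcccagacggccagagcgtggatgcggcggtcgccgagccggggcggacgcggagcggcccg
Gata3, chr2:9878551-9878850, minus strand: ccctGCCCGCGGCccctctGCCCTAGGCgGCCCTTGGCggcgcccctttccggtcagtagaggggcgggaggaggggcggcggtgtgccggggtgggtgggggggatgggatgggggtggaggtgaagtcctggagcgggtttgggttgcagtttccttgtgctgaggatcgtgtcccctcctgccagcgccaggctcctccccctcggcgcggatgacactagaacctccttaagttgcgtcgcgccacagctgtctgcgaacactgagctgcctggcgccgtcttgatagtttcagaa
Pax9, chr12:56695221-56695520, plus strand: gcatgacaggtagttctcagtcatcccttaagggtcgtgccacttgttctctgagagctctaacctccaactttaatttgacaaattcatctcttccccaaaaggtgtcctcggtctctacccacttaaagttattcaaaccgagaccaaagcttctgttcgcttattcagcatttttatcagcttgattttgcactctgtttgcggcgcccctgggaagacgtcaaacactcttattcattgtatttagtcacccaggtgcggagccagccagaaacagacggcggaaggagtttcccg
The Bnc1 promoter held 1 AP-2 match, beginning 173 bases before the start site, and the Gata3 promoter held 3, beginning 246, 231 and 221 bases before it. The same motif occurred in 5450 of 32851 promoters of this length (16.6%). Neither the Pax9 promoter nor either Tfap2a promoter (chr13:40733746-40734045 and chr13:40734871-40735170) held it. Bnc1 stood out in base composition, with 83.3% G and C and 50 CpG dinucleotides, against a median of 52.7% and 7 CpG over all promoters. Its G and C content was higher than that of 99.7% of them. The Gata3 promoter was 67.3% G and C with 22 CpG, and the Pax9 promoter 47.0% with 11. The other motifs searched on both strands were AGATAA for GATA factors, TAATCC for PITX factors, TATAAA for the TATA box and the p53 family half-site. They occurred in 11.2%, 7.06%, 13.6% and 8.36% of all promoters in that order, and in none of the 5 promoters matched here. A match is a description of letters and not a binding site, and its absence concerns this window and the letters searched only. GATA variants other than AGATAA were not searched.

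Expression is given in CPM, a gene's reads scaled to a common library total, as deposited. The listed genes held 33.2 to 48.4% of the full CPM scale in each library. The smallest steps between values put the library totals at 36.9 to 47.7 M reads so that 3 reads correspond to 0.063 to 0.0814 CPM. Values listed at 0 are reported as such, since genes used by every cell, such as Hmgcs1 and Msmo1 of cholesterol synthesis, were also listed at 0 in all 6 libraries. Basal and columnar marker genes followed the labels. Summed squamous basal markers (10 of 11 genes with a row, Krt5, Krt14 and Krt17 among them) were at 17090 and 15140 CPM in the forestomach libraries, against 401 to 527 CPM in antrum and 332 to 389 CPM in corpus. Summed columnar markers (15 genes, Cldn18 and Krt8 among them) were at 52.1 and 53.9 CPM in forestomach, against 5303 to 7574 CPM in antrum and 8362 to 8806 CPM in corpus. Suprabasal squamous markers were mixed. Of 7 tested, 5 were higher in forestomach than in the glandular regions, all 5 of them tested through the forestomach libraries alone. The cornified envelope gene Ivl, named after its values were seen, was lower (limma adjusted p = 0.0108). Ivl was at 0.50 and 1.98 CPM in forestomach, against 6.97 and 3.03 CPM in antrum and 4.94 and 3.53 CPM in corpus. The shares over all genes tested were 26.7% higher and 21.1% lower.

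Of the 7 factors, 6 were higher in both forestomach libraries than in all 4 glandular libraries, where glandular means antrum and corpus together. Pax9 was the exception. Of 11891 genes tested, 34.3% had that arrangement. In limma's test on log2(CPM + 1), the same 6 factors were higher in forestomach than in the mean of the 2 glandular regions at a Benjamini-Hochberg adjusted p under 0.05, a call reached in this direction by 26.7% of the genes tested, and in either direction by 47.8%. All 7 passed the filter of at least 1 CPM in at least 2 libraries, but Trp63, Bnc1, Tfap2c and Gata3 passed it through the forestomach libraries alone. For those 4 a forestomach excess was thus built into being tested at all. The median gene differed by 0.13 on the same log2 scale (-0.02 with median ratio scaling of the libraries), and the differences below are to be read relative to it. In bulk cultures, fewer cells of a type and less RNA per cell cannot be told apart.

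**Figure D1:**
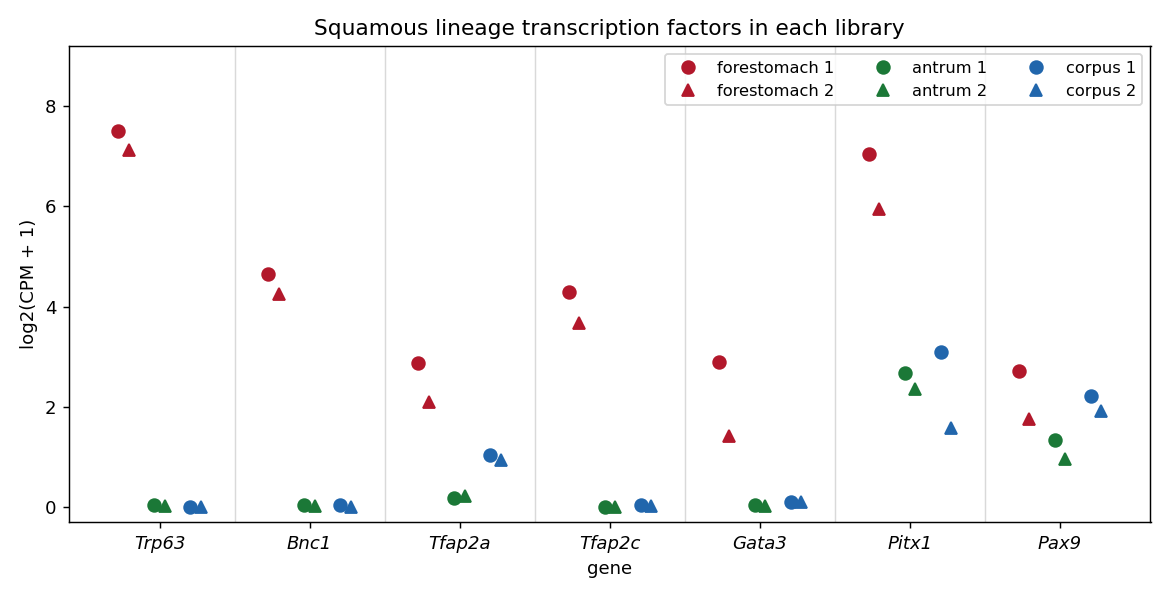
Level of each of the 7 factors as log2(CPM + 1) in each library, by region, with circles for library 1 and triangles for library 2. Trp63, Bnc1, Tfap2c and Gata3 sit at or near 0 in every antrum and corpus library, whereas Pitx1 stays at 1.99 CPM or more everywhere and Pax9 overlaps between forestomach and corpus.

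Trp63 had the largest difference of the 7 factors. It was at 180 and 138 CPM in the forestomach libraries, against 0.03 and 0.02 CPM in the antrum libraries, and it was listed at 0 in both corpus libraries. The antrum values correspond to 1 read each, and the forestomach values to about 6796 and 5573 reads. Forestomach averaged 159 ± 29.8 CPM (SD, n = 2), and the groups were far apart. The forestomach over glandular difference was 7.29 log2 units (SE 0.21; limma adjusted p = 3.41e-08), rank 14 among the 11891 genes ordered by that difference. Its size depends on the pseudocount, because the glandular level is near 0: it was 9.24 with a pseudocount of 0.25 and 5.33 with one of 4. Gene-level values do not separate the p63 isoforms with and without the transactivation domain.

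Bnc1 was at 24.2 and 18.2 CPM in the forestomach libraries, against 0.03 and 0.02 CPM in antrum, and 0.03 CPM in corpus 1, and it was listed at 0 in corpus 2. No glandular library had more than about 1 read of it. Forestomach averaged 21.2 ± 4.23 CPM (SD, n = 2). The difference was 4.43 log2 units over the glandular regions (SE 0.19; limma adjusted p = 2.08e-07). Of the 7 factors, Bnc1 and Tfap2c had the most alike profiles over the 6 libraries, with a root mean square distance of 0.23 log2 units after each gene was centred on its own mean.

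The 2 AP-2 genes differed from each other in the glandular cultures. Tfap2c was at 18.5 and 11.8 CPM in forestomach, listed at 0 in both antrum libraries, and at 0.03 and 0.02 CPM in corpus, about 1 read in each. Its groups did not overlap, and the forestomach over glandular difference was 3.96 log2 units (SE 0.21; limma adjusted p = 7.26e-07). Tfap2a was lower in forestomach than Tfap2c, at 6.31 and 3.29 CPM, yet it remained detectable in the glandular libraries, at 0.13 and 0.17 CPM in antrum and 1.06 and 0.92 CPM in corpus. The corpus values rest on about 39 and 44 reads and the antrum values on 5 and 8 reads. Corpus thus held 20.6% of the forestomach mean of Tfap2a and antrum 3.13%. Forestomach exceeded antrum by 2.28 log2 units for Tfap2a (SE 0.27; limma adjusted p = 0.000143) and corpus by 1.49 log2 units (adjusted p = 0.00187). The difference between the 2 glandular regions is given with the antrum and corpus comparison.

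Gata3 was low throughout and the most uneven of the factors in forestomach. It was at 6.42 CPM in forestomach 1 and 1.68 CPM in forestomach 2, about 242 and 68 reads, against 0.03 and 0.02 CPM in antrum and 0.08 CPM in both corpus libraries. Each glandular value rests on 1 to 4 reads. The forestomach over glandular difference was 2.08 log2 units (SE 0.34; limma adjusted p = 0.000872). It was 1.35 log2 units without forestomach 1 and 2.82 without forestomach 2. Each of those fits holds 1 forestomach library and takes its spread from the glandular libraries alone, so it cannot weigh the uneven forestomach pair. Because Gata3 also marks T and innate lymphoid cells, 12 of their markers were looked up. Of these 5 had a row, their sum was at 0 and 0.02 CPM in forestomach, 0.99 and 0.94 CPM in antrum, and 1.38 and 0.94 CPM in corpus, and Cd4 was listed at 0 in all 6 libraries. Ptprc, the pan-leukocyte marker, was listed at 0 in both forestomach libraries.

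Pitx1 was the only one of the 6 called factors above 1 CPM in every library. It was at 132 and 61.1 CPM in forestomach, against 5.37 and 4.14 CPM in antrum, and 7.57 and 1.99 CPM in corpus. The lowest glandular value, in corpus 2, still rests on about 95 reads. Set against the forestomach mean of 96.4 ± 49.9 CPM (SD, n = 2), the glandular libraries held 5.57% and 4.30% in antrum, and 7.85% and 2.06% in corpus. The squamous keratin Krt5, in comparison, held 0.0162% of its forestomach mean over the 4 glandular libraries, Krt14 held 0.0189%, and the desmosomal cadherin Dsc3 held 0.0172%. The rest of the squamous basal list was spread widely. Krt17 held 0.0227%, Dsg3 0.09%, Krt15 0.168% and Col17a1 0.238%, whereas Perp held 6.76%, Itgb4 43.7% and Itga6 48.4%. In corpus 1, the glandular library with the highest Pitx1, Krt5 was at 0.19 CPM and Krt14 at 1.30 CPM. The part of squamous cells in the glandular Pitx1 values was not tested. The forestomach over glandular difference of Pitx1 was 4.08 log2 units (SE 0.44; limma adjusted p = 6.54e-05).

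Pax9 was not called over the glandular regions together, but the call depended on the fit: it was called with a replicate block (limma adjusted p = 0.0446) and without forestomach 2 (1.10 log2 units; adjusted p = 0.0171). It was at 5.54 and 2.40 CPM in forestomach, against 1.52 and 0.94 CPM in antrum, and 3.66 and 2.77 CPM in corpus. Both corpus values lay between the 2 forestomach values, and both antrum values lay below all others. Forestomach over glandular was 0.63 log2 units (SE 0.28; 95% interval -0.01 to 1.27; limma adjusted p = 0.0956). Forestomach over corpus was 0.17 log2 units (95% interval -0.57 to 0.91; adjusted p = 0.707), an interval that still holds differences in either direction, and it was -0.30 without forestomach 1 and -0.065 with median ratio scaling. Forestomach over antrum was 1.09 log2 units (95% interval 0.35 to 1.83; adjusted p = 0.0268), in a comparison with 18.7% of genes called higher. That call rests on few libraries: without forestomach 1 the difference was 0.62 (adjusted p = 0.104), without antrum 1 it was 1.28 (adjusted p = 0.0524), and without antrum 2 it was 0.90 (adjusted p = 0.154).

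The order of the factors in a region was compared per kilobase of merged exons. Merged exons join all annotated transcripts of a gene, 8.39 kb for Trp63 and 2.66 kb for Pitx1. A single transcript can be shorter, so the order can depend on this choice of length. In forestomach Pitx1 was highest, at 36.3 CPM per kb, with 49.6 and 23.0 CPM per kb in the 2 libraries, followed by Trp63 at 19.0, with 21.5 and 16.5. The lower Pitx1 library exceeded the higher Trp63 library. Bnc1 (4.56 CPM per kb) and Tfap2c (4.12) overlapped between libraries, and so did Gata3 (1.02), Tfap2a (0.979) and Pax9 (0.785). In antrum, Pitx1 at 1.79 CPM per kb was followed by Pax9 at 0.243. In corpus, Pitx1 at 1.80 CPM per kb was followed by Pax9 at 0.636 and Tfap2a at 0.202, and the lower Pitx1 library, at 0.749 CPM per kb, was close to the higher Pax9 library, at 0.724. Genes on the opposite strand overlap Bnc1, Tfap2a, Gata3, Pitx1 and Pax9 in GENCODE M21, genes on the same strand overlap Gata3 (9230102O04Rik) and Pitx1 (Gm28760), and whether counting used strand is not given in the sources used here; reads of such partners could be included.

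**Figure D2:**
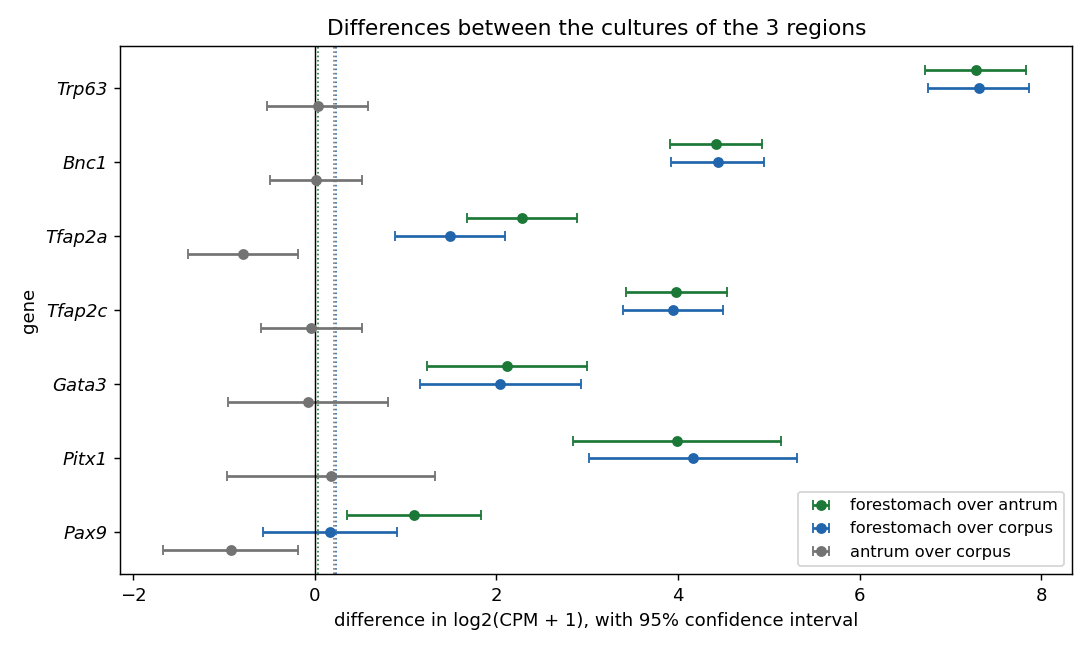
Difference in log2(CPM + 1) for each factor, with 95% confidence intervals from limma, for forestomach over antrum, forestomach over corpus and antrum over corpus; dotted lines mark the median of all genes in each comparison. The forestomach intervals lie above 0 for every factor and region except Pax9 over corpus, and the antrum over corpus intervals lie below 0 for Tfap2a and Pax9.

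Each glandular region was also set against forestomach on its own. The 6 factors other than Pax9 were called higher in forestomach than in corpus, where 26.5% of genes were called higher and 17.1% lower, and higher in forestomach than in antrum, where 18.7% were called higher and 20.2% lower. Over corpus the split of all calls was 3146 higher and 2032 lower, and with median ratio scaling 2660 higher and 2993 lower. Pitx1, for example, was 3.99 log2 units higher in forestomach than in antrum (limma adjusted p = 0.000241) and 4.16 log2 units higher than in corpus (adjusted p = 0.000181). Gata3 was 2.12 and 2.05 log2 units higher in the same comparisons (adjusted p = 0.00227 and 0.00263). The comparisons share the forestomach libraries.

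Between antrum and corpus, grown by the same protocol, none of the 7 factors was called by limma, in a comparison with 0.757% of genes called (0.555% higher and 0.202% lower in antrum). At an unadjusted p under 0.05 there were 2, Tfap2a and Pax9, both lower in antrum. Tfap2a was 0.15 ± 0.0283 CPM in antrum and 0.99 ± 0.099 CPM in corpus (SD, n = 2 each), a difference of -0.79 log2 units (SE 0.27; limma unadjusted p = 0.0162, adjusted p = 0.404). Pax9 was 1.23 ± 0.41 CPM in antrum and 3.22 ± 0.629 CPM in corpus, a difference of -0.92 log2 units (SE 0.33; limma unadjusted p = 0.0201, adjusted p = 0.44). For both genes the 2 antrum values lay below the 2 corpus values. So did those of Tfap2c and Gata3, at levels of a few reads, and 5.32% of all genes had that arrangement. Trp63, at 1 read in each antrum library and listed at 0 in corpus, had the opposite one, as did 45.4% of all genes. Pitx1 was at 4.76 ± 0.87 CPM in antrum and 4.78 ± 3.95 CPM in corpus, and the difference of 0.18 log2 units had an interval of -0.97 to 1.32 and was -0.58 without corpus 2.

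The 2 libraries of a region were not equally alike. All 7 factors were higher in forestomach 1 than in forestomach 2, as were 71.0% of all genes tested, and each factor exceeded the median gene difference of 0.28 log2 units. The ratio of forestomach 1 to forestomach 2 was 1.31 for Trp63, 1.33 for Bnc1, 1.57 for Tfap2c, 1.92 for Tfap2a, 2.15 for Pitx1, 2.31 for Pax9 and 3.82 for Gata3. On the log2(CPM + 1) scale, Gata3 differed by 1.47, more than 97.6% of genes. In that region 1488 genes (12.5%) were more than 2-fold apart on that scale, against 161 (1.35%) in antrum and 121 (1.02%) in corpus. Squamous basal markers summed to 17090 CPM in forestomach 1 and 15140 CPM in forestomach 2, suprabasal markers to 1993 and 2676 CPM, and proliferation genes to 1308 and 1027 CPM. The part of these differences in the factors' values was not tested. Pitx1 was the one factor that split the corpus libraries, 3.80-fold higher in corpus 1 than in corpus 2, a difference of 1.52 log2 units and larger than for 99.9% of genes. Of 72 other regulators listed below and tested, Irx5 (4.20 and 1.22 CPM in corpus 1 and 2) and the antral factor Nkx6-3 (1.84 and 0.06 CPM) were also more than 2-fold apart there. Their part in the Pitx1 difference was not tested.

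**Figure D3:**
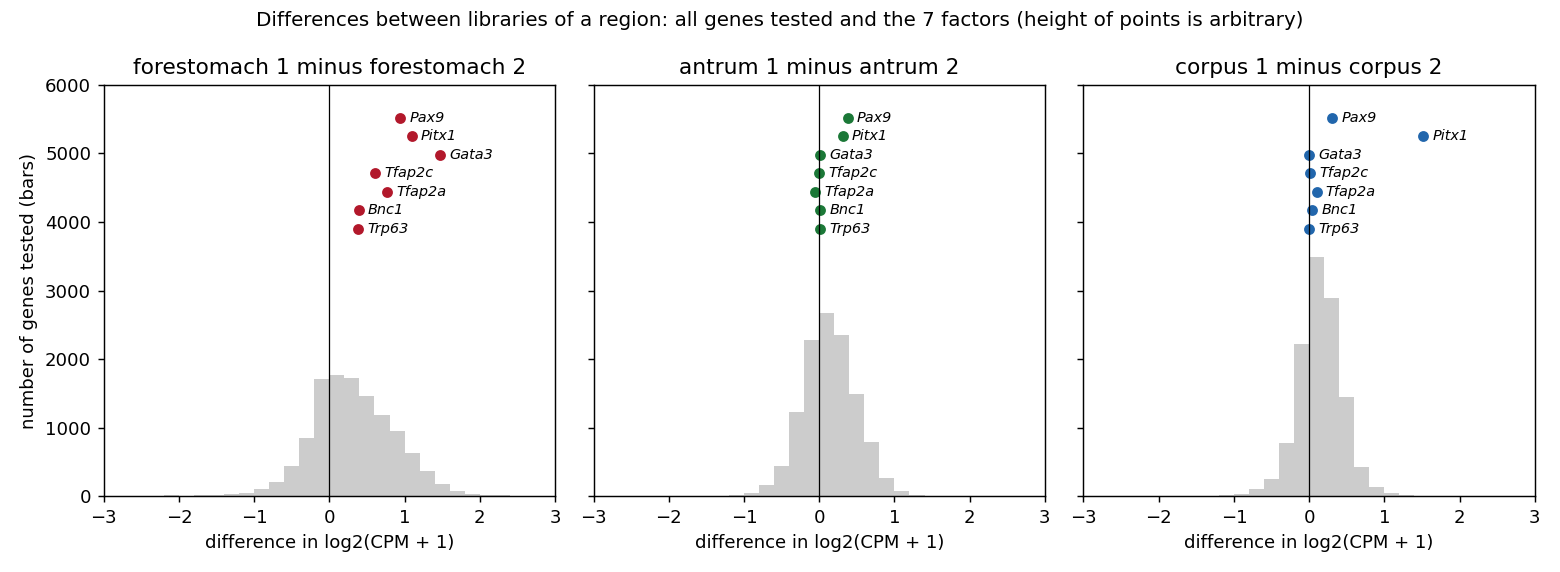
Difference in log2(CPM + 1) between library 1 and library 2 of each region, for all 11891 genes tested (grey bars, number of genes) and for the 7 factors (coloured points, at arbitrary height). All 7 factors lie right of 0 in forestomach, with Gata3 farthest at 1.47, and Pitx1 stands apart in corpus at 1.52.

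Family relatives of the factors did not share 1 pattern. Of 21 listed relatives 12 had a row and 7 were tested. Of those tested, 3 were higher in forestomach, 3 were lower and 1 (Pax8) was not called. The shares over all genes were 26.7% higher and 21.1% lower. The median difference of the relatives was 0.05 log2 units, against 0.13 over all genes. Bnc2 and Trp73 passed the filter through the forestomach libraries alone, and Gata4, Gata5 and Gata6 through the glandular libraries alone. The GATA family split between the cultures. Gata4, Gata5 and Gata6, the endodermal members, were high in antrum and corpus. Gata4 was at 0.08 and 0.17 CPM in forestomach, against 73.1 and 51.9 CPM in antrum and 83.9 and 68.4 CPM in corpus (-5.95 log2 units; limma adjusted p = 1.43e-07). Gata6 was at 0.08 CPM in forestomach 1 and listed at 0 in forestomach 2, against 35.3 and 31.7 CPM in antrum and 44.4 and 36.8 CPM in corpus. Gata5 was listed at 0 in both forestomach libraries, against 46.7 and 41.5 CPM in antrum and 30.0 and 24.7 CPM in corpus. Gata3 thus ran opposite to its 3 tested relatives.

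The basonuclin and p53 families ran with their members or were shared. Bnc2, the second basonuclin, was at 13.0 and 7.98 CPM in forestomach, against 0.13 and 0.19 CPM in antrum and 0.11 and 0.17 CPM in corpus (3.29 log2 units; limma adjusted p = 2.61e-06). Trp73, the p63 relative p73, was chosen for mention after its values were seen: it was at 2.36 and 2.13 CPM in forestomach and listed at 0 in all 4 glandular libraries. Trp53 itself was expressed in every culture, at 52.5 and 65.0 CPM in forestomach, 44.1 and 32.8 CPM in antrum, and 31.9 and 26.4 CPM in corpus (0.80 log2 units; limma adjusted p = 0.023). Tfap2b, another AP-2 gene, was listed at 0 in all 6 libraries.

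**Figure D4:**
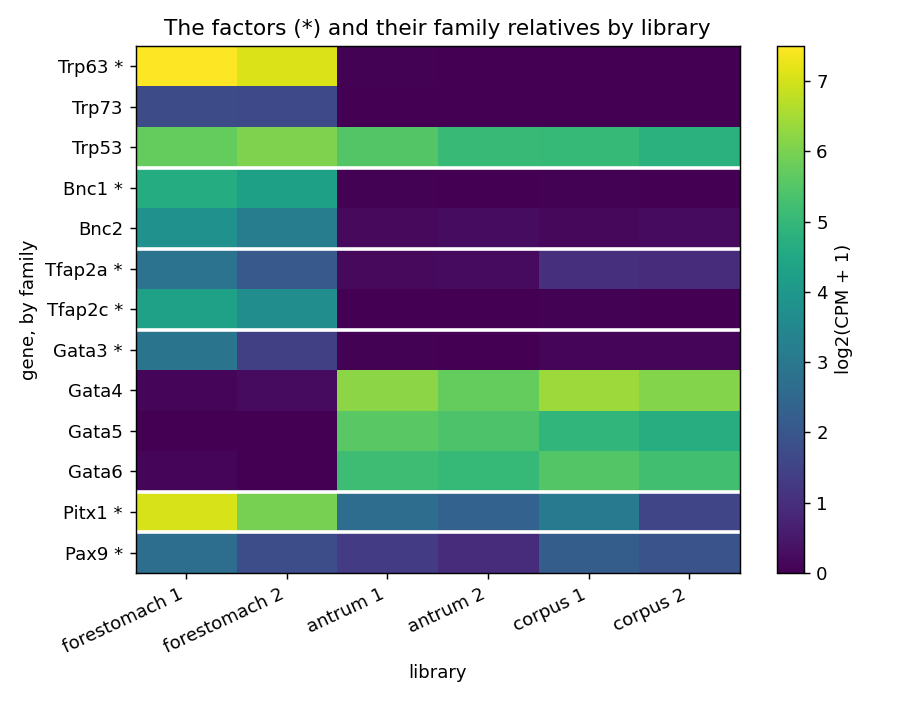
Level as log2(CPM + 1) (colour) in each library of the factors, marked with an asterisk, and of their relatives, in blocks by family; colours are to be compared along a row, since values are not divided by gene length. Gata3 and the trio Gata4, Gata5 and Gata6 show opposite patterns, whereas Bnc2 follows Bnc1.

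Genes listed as p63 targets, whether activated or repressed, were mostly higher in forestomach. The list shares Krt5, Krt14, Itga6, Itgb4, Col17a1, Dsg3, Dsc3 and Perp with the squamous basal markers above, so it partly repeats that result. Of 29 such genes tested, 25 were higher, 1 was lower and 3 were not called, with a median of 1.86 log2 units against 0.13 over all genes tested, of which 26.7% were higher and 21.1% lower. Krt5, Dsc3, Dsg3 and Cldn1 were tested through the forestomach libraries alone, so their excess was built into being tested. The largest differences were those of the basal keratins Krt14 (11.58 log2 units; limma adjusted p = 1.61e-08) and Krt5 (11.04; adjusted p = 2.3e-08) and of the desmosomal cadherins Dsc3 (8.96; adjusted p = 3.47e-08) and Dsg3 (8.41; adjusted p = 3.21e-08). Krt14 was at 7227 and 7056 CPM in forestomach, against 1.34 and 1.02 CPM in antrum and 1.30 and 1.74 CPM in corpus. Chuk and Fgfr3 were among those not called, and Fermt1, an integrin activator of basal cells, was lower (-1.32 log2 units; limma adjusted p = 0.00167); these 3 are named after their values were seen. Fermt1 was at 31.5 and 21.8 CPM in forestomach, against 70.6 and 74.6 CPM in antrum and 64.5 and 58.9 CPM in corpus. Without forestomach 1, 2 of the 29 were lower in place of 1. Between antrum and corpus only 1 of the 29 was called, against 0.757% of all genes. It was Fgfr2, the receptor for FGF7 and FGF10, at 11.7 and 13.6 CPM in antrum and 2.88 and 2.39 CPM in corpus (1.91 log2 units, limma adjusted p = 0.0238).

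Genes of the p53 family and regulators of p63 stability made up a further list. Of 11 tested, 5 were higher in forestomach and 6 were not called, against 26.7% higher over all genes, and 1 of the 5, Trp73, was tested through the forestomach libraries alone; none was lower by adjusted p and 1 was at an unadjusted p under 0.05. Their median was 0.71 log2 units. The ubiquitin ligase subunit Fbxw7 was 1.06 log2 units higher (limma adjusted p = 0.0115), Mdm2, the p53 ubiquitin ligase, 0.99 (adjusted p = 0.00747), and Stxbp4, which stabilises p63, 0.96 (adjusted p = 0.0241). Over antrum alone 2 of the 11 were called, both higher, against 18.7% of all genes. Mdm2 (0.73 log2 units, limma adjusted p = 0.0618), Stxbp4 (0.67, adjusted p = 0.153) and Trp53 (0.61, adjusted p = 0.116) were not called over antrum. These counts depend on the libraries and the scaling. Without forestomach 1, 3 of the 11 were lower; without forestomach 2, and likewise without corpus 1, 3 were higher in place of 5; and with median ratio scaling 2 were lower.

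Of 10 cofactors of AP-2 and GATA factors tested, 2 were higher in forestomach, 4 lower and 4 not called, with a median of -0.45 log2 units. The shares over all genes were 26.7% higher and 21.1% lower. The 2 higher genes, Kctd15 and Kctd1, encode proteins known to restrain AP-2 activity. Kctd15 was at 22.0 and 8.55 CPM in forestomach, against 1.73 and 1.17 CPM in antrum and 2.55 and 2.18 CPM in corpus (2.37 log2 units; limma adjusted p = 0.000353). Kctd1 was 1.95 log2 units higher (limma adjusted p = 0.000109). Zfpm1, which encodes the GATA partner FOG1, was at 5.30 and 4.95 CPM in forestomach, against 46.5 and 31.8 CPM in antrum and 34.3 and 24.6 CPM in corpus (-2.49 log2 units; limma adjusted p = 4.68e-05). The coactivator gene Ep300 was lower by 1.07 log2 units in forestomach (limma adjusted p = 0.0127).

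Other transcription factors of stratified epithelia were higher in forestomach in 12 of 22 cases tested, lower in 2 and not called in 8, with a median of 1.02 log2 units. Over all genes, 26.7% were higher and 21.1% lower, with a median of 0.13 log2 units. Of these genes 5, Sox15 among them, were tested through the forestomach libraries alone. Bcl11b, a factor of skin and teeth, was at 45.2 and 17.3 CPM in forestomach, against 2.30 and 2.13 CPM in antrum and 0.14 and 0.46 CPM in corpus (3.84 log2 units; limma adjusted p = 1.91e-05). Sox15 was 3.51, Barx2 3.33 and Ets1 3.27 log2 units higher. The 2 lower genes, Grhl3 (-1.51 log2 units; limma adjusted p = 0.000834) and Ovol1 (-0.91; adjusted p = 0.0183), act in epidermal differentiation and barrier formation and are named after their values were seen. The count of lower genes was 4 without forestomach 1, and 1 without forestomach 2, corpus 1 or antrum 1.

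Foregut and oral patterning factors were all called in 1 direction or the other, with 7 of 9 tested higher in forestomach and 2 lower, and a median of 1.77 log2 units, against 26.7% higher and 21.1% lower over all genes. Irx1 and Msx2 were tested through the forestomach libraries alone. Irx1 was at 49.8 and 21.7 CPM in forestomach, against a listed 0 and 0.02 CPM in antrum, and it was listed at 0 in both corpus libraries (5.08 log2 units; limma adjusted p = 1.31e-06). Sox2, a foregut factor needed for oesophagus and forestomach, was present in all regions, at 39.3 and 17.0 CPM in forestomach, 6.92 and 5.99 CPM in antrum, and 7.51 and 4.95 CPM in corpus (1.89 log2 units; limma adjusted p = 0.00144). Irx5 was above antrum in both corpus libraries, though not called between them (limma adjusted p = 0.171), at 8.12 and 3.39 CPM in forestomach, 0.03 CPM and a listed 0 in antrum, and 4.20 and 1.22 CPM in corpus. Meis2 and Isl1, named after their values were seen, were the 2 lower genes (-1.74 and -1.53 log2 units). The Isl1 call rested on corpus, since Isl1 was listed at 0 in both forestomach libraries, against 0.03 and 0.02 CPM in antrum and 6.32 and 8.16 CPM in corpus.

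Columnar stomach transcription factors ran the other way. Of 23 tested, 19 were lower in forestomach and 4 were not called, Klf5, Klf4 and Ehf among them, with a median of -2.98 log2 units, against 21.1% lower over all genes. Some, such as Hnf4a, were tested through the glandular libraries alone. None was higher, by adjusted p or at an unadjusted p under 0.05. Hnf4a, a nuclear receptor of endodermal epithelia, was listed at 0 in both forestomach libraries, against 99.98 and 65.8 CPM in antrum and 83.3 and 66.6 CPM in corpus. Antrum and corpus differed in 5 of the 23, against 0.757% of all genes. Nkx6-3, Pdx1, Nkx6-2 and Onecut2 were higher in antrum and Esrrg was lower.

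Markers of other cell types moved with the regions too. Macrophage and dendritic genes (10 of 11 with a row, 3 tested, all 3 higher in forestomach) summed to 49.7 and 45.3 CPM in forestomach, against 4.33 and 5.25 CPM in antrum and 4.97 and 3.90 CPM in corpus. Most of that sum was Cd68 (44.8 and 39.5 CPM in forestomach; 3.03 log2 units; limma adjusted p = 5.36e-06), a lysosomal protein. The others were H2-Ab1, at 3.63 and 4.19 CPM in forestomach, against 0.03 CPM and a listed 0 in antrum and 0.11 and 0.08 CPM in corpus, and H2-Eb1, at 1.14 and 1.49 CPM in forestomach, against 0.03 and 0.02 CPM in antrum and a listed 0 in both corpus libraries. These MHC class II genes were tested through the forestomach libraries alone and are named after their values were seen, while Adgre1, Itgax and Ptprc were listed at 0 in both forestomach libraries. Fibroblast genes (15 genes, 9 tested, 8 lower and 1 higher in forestomach) summed to 16.7 and 4.28 CPM in forestomach, against 115 and 109 CPM in antrum and 129 and 68.0 CPM in corpus, with Col3a1 at -4.07 log2 units (limma adjusted p = 4.26e-06). The lower genes other than Fn1, named after its values were seen, were tested through the glandular libraries alone. The higher gene was tested through the forestomach libraries alone. Those directions were thus built into being tested. The 1 higher call, S100a4, was lost without forestomach 2 and without each of the 4 glandular libraries. Endothelial genes summed to 6.57 and 8.45 CPM in forestomach, against 2.89 and 2.45 CPM in antrum and 2.20 and 1.86 CPM in corpus. In forestomach most of that sum was Egfl7. Of 2 endothelial genes tested, Egfl7 was higher in forestomach and Pecam1, named after its values were seen, was lower. Pecam1 was at 0.13 CPM and a listed 0 in forestomach, against 1.19 and 0.85 CPM in antrum and 0.68 and 1.38 CPM in corpus. It was tested through the glandular libraries alone. Neural crest and melanocyte genes (4 of 9 with a row) summed to 3.87 and 2.27 CPM in forestomach, against 1.42 and 0.79 CPM in antrum and 0.90 and 1.03 CPM in corpus, with Sox10 without a row. Proliferation genes were higher in forestomach in 8 of 10 cases, with sums of 1308 and 1027 CPM against 544 and 844 CPM in antrum and 456 and 461 CPM in corpus. Over all genes, 26.7% were higher and 21.1% lower. Over antrum alone 7 of the 10 were higher, against 18.7% of all genes. Mki67, named after its values were seen, was at 239 and 74.1 CPM in forestomach, 165 and 286 CPM in antrum, and 131 and 147 CPM in corpus. The part of these cells, or of proliferation, in the levels of the 7 factors was not tested.

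For each factor, the 3 genes with the most alike profile were found among 10819 genes by root mean square distance of centred log2(CPM + 1) over the 6 libraries. Those nearest to Trp63 were Dmkn (0.23 log2 units), Igfbp2 (0.25) and Wnt4 (0.27), and those nearest to Bnc1 were Prkg2 (0.081), Vsnl1 (0.089) and Gna15 (0.11). Tfap2a lay nearest to Dmrt2 (0.10), Robo1 (0.14) and S100pbp (0.22), and Dmrt2 showed the same graded order, with 5.09 and 3.17 CPM in forestomach, 0.13 and 0.19 CPM in antrum, and 0.84 and 0.76 CPM in corpus. Tfap2c lay nearest to Pros1 (0.12), Leprel1 (0.13) and Phyhip (0.14), and Gata3 to Rps6ka2 (0.056), Cecr2 (0.093) and Nfam1 (0.14). The Gata3 neighbours shared its uneven forestomach pair, with Cecr2 at 7.45 and 1.81 CPM. Pitx1 had the least close neighbours, Thbd (0.33), Plekho2 (0.37) and Arl4d (0.40). Pax9 lay nearest to Gt(ROSA)26Sor (0.15), Tmem154 (0.16) and Bnip3 (0.18), and none of these was listed at 0 in any library. Among the factors themselves, Tfap2a and Gata3 were 0.37 log2 units apart, and Trp63 and Pax9 were farthest, at 3.17. These distances rest on 6 points that share libraries and regions.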

How the data were processed

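Total RNA of 6 cultures was prepared with Ribo-Zero, per the labels' protocols. STAR, HTSeq, DESeq2 and edgeR and the genome build mm9 are named in the submitters' processing notes, without versions or roles. The authors deposited 1 table of CPM values (a gene's reads scaled to a common library total) with 2 decimals. Its column sums fall short of the full scale, and its 15450 rows held 19 with a date in place of a symbol (0.169 to 0.206% of listed CPM), which were left out, giving 15431 genes. Column names give the region and a number; the column named pylorus was taken as antrum, whose label holds that word. The label IDs 75 and 76, shared by every region, are not in the column names, so libraries are numbered as the columns are.

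The factors, gene lists and tests were chosen with earlier results of these data known. The 11891 genes with 1 CPM or more in 2 libraries or more were fitted with 3 group means on log2(CPM + 1) by limma 3.58.1 in R 4.3.3 (lmFit, eBayes with trend), with two-sided tests and Benjamini-Hochberg adjustment over all genes tested, at 0.05. Fold changes are on that scale and understate low genes, and list medians depend on the pseudocount. The residual degrees of freedom were 3, with a prior of 6.1. Library 1 minus library 2 had an SD over genes of 0.57 log2 units in forestomach, 0.37 in antrum and 0.31 in corpus. The shared spread can thus be too small for forestomach and too large for antrum over corpus. The fit was tested on simulated data. No count test was run, since the values are CPM; reads were estimated only to state depth, from the step between low values (100% of values under 200 CPM fell on it within 0.0051 CPM). Intervals cover the spread between libraries, and read numbers carry counting error only.

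Of each list, up to 4 genes with the largest called difference and a mean of 5 CPM or more in the higher group were named, together with genes listed at 0 or not tested. Other names are said to be chosen afterwards. Exon lengths and overlaps came from GENCODE M21, and Python 3.11.15 was used. Alternatives were the pseudocount (0.25 and 4), the filter (none and 5 CPM), median ratio scaling, no intensity trend, only the groups compared, a replicate block and leaving out each library.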

Additional observations from a re-analysis of the deposited data

How the results depend on the processing

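The 6 factors other than Pax9 were called higher in forestomach over glandular, corpus and antrum under every one of the 240 alternative values that could be computed, with differences between 0.80 and 9.3 log2 units. The 5 CPM filter tested Trp63, Bnc1, Tfap2c and Pitx1 alone. Trp63, Bnc1, Tfap2c and Gata3 passed the main filter through the forestomach libraries alone, so their direction was built into being tested. The alternatives all drew on the same 6 libraries and are not independent of each other. Pax9 over the glandular regions was called with a replicate block (adjusted p = 0.0446) and without forestomach 2 (1.10; adjusted p = 0.0171); over antrum it was not called with no filter (1.09; adjusted p = 0.0502) or without forestomach 1 (0.62), antrum 1 (1.28) or antrum 2 (0.90). Pax9 over corpus reversed with median ratio scaling (-0.065) and ranged from -0.30 to 0.64 with 1 library left out (-0.30 without forestomach 1). In antrum over corpus, Pitx1 reversed with median ratio scaling (-0.0082) and ranged from -0.58 (without corpus 2) to 0.94, and Bnc1 ranged from -0.0070 (without corpus 2) to 0.036; none of these was called. Leaving out 1 library, with the lone one assumed to vary like the other groups, gave 4349 to 6061 called genes in forestomach over glandular, 3031 to 5816 over corpus (3031 without corpus 2, against 5178), 3070 to 5397 over antrum (3070 without antrum 2, against 4630) and 19 to 33 in antrum over corpus, against 90, whichever library was left out. That last count was 54 with no filter, 48 with no trend, 26 with only the 2 groups, and 33 with the replicate block. Median ratio scaling moved the split of higher and lower calls from 3146 and 2032 to 2660 and 2993 in forestomach over corpus, and from 66 and 24 to 41 and 25 in antrum over corpus. The block used column numbers; differences of library 1 minus library 2 correlated across genes at -0.06 (forestomach and corpus), -0.11 (forestomach and antrum) and 0.61 (antrum and corpus). Antrum and corpus libraries of the same number thus deviated together and forestomach libraries did not, and the labels do not say what the numbers mark. The causes of these changes were not tested. Depth limits Trp63, Bnc1, Tfap2c and Gata3 in the glandular libraries, where values rest on 0 to 4 reads.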
